A study of Mus musculus with 8 samples.

Results

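Trimethylated lysine 4 of histone H3 (H3K4me3) marks the promoters of active and poised genes, where SET1 and MLL methyltransferase complexes deposit it on the nucleosomes on both sides of a transcription start. At an active start a nucleosome-depleted stretch often separates the marked nucleosomes. A peak caller reports a stretch of enriched sequence as 1 peak or, where the enrichment falls below its limits for long enough, as separate pieces. The domains described here are those of middling width that were reported in pieces in at least 1 library.

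Chromatin immunoprecipitation with sequencing (ChIP-seq) mapped the mark in E12.5 embryonic mouse brain, with 2 libraries from wild type (WT) controls that carry no Cre and 2 from embryos labelled Lats1/2;Nestin-Cre dKO. In the second group Lats1 and Lats2, Hippo kinases that hold back the coactivators YAP and TAZ, were deleted with a Cre driven in neural progenitors, so Cre and the deletions cannot be told apart. All embryos had a mixed strain background. Whole brain mixes progenitors, neurons and other cells, so fewer cells with a mark and less mark per cell cannot be told apart, and no label says which animal gave each library. The lists held 17367 to 19486 peaks on build mm9, and read depth was unknown for all 4.

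The peaks of the 4 lists merged into 19712 union regions wherever they overlapped or touched, and 14943 of these had a peak in every library. The broken domains were chosen by their peaks: a peak in all 4 libraries, a WT mean of summed peak widths from 500 to under 3000 bp, and 2 or more separate peaks in at least 1 library. This gave 2698 domains of the 13467 shared regions in that width range (20.0%), while the other 10769 were a single peak in every library. Because pieces and WT widths chose the domains, their counts and sizes below are descriptions without a test. Near the lower limit, the domain at chr7:128535516-128536294 had a WT mean of 503 bp and that at chr13:53567592-53568256 had 505 bp, and the broken regions just outside had 494.5 bp (chr1:140744687-140745779) and 491.5 bp (chr1:7387205-7388057). At the upper limit, chr4:136389868-136392954 had 2993 bp and chr6:38823865-38827060 had 2987.5 bp, against 3008.5 bp at chrX:17738655-17741869 and 3010 bp at chr15:76348997-76352472 just outside.

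Breaks were unequally spread over the libraries, and the order did not follow genotype. WT replicate 1 broke 1283 domains (47.6%), WT replicate 2 broke 767 (28.4%), dKO replicate 1 broke 1048 (38.8%) and dKO replicate 2 broke 1498 (55.5%). The genotypes therefore overlapped, with WT replicate 1 above dKO replicate 1. The dKO mean exceeded the WT mean by 248 domains, less than the spread between libraries of a genotype (pooled SD 342.3). Lists cut to about the length of the shortest, by score, kept this order, at 924, 530, 920 and 1481 domains. The difference of the means was then 473.5 domains, above that SD, with WT replicate 1 only just above dKO replicate 1. This cut left 17083 and 17102 peaks for WT, 17301 for dKO replicate 1 and all 17367 for dKO replicate 2. It thus took low-scoring peaks mostly from the WT lists and none from dKO replicate 2, and losing a piece can end a break. What this did to the difference was not tested. Median deposited peak scores, on a scale that no label names, were 338.5 and 324 for WT and 312 and 230 for dKO. Peaks covered 20.3 and 21.4 Mb for WT against 19.3 and 17.3 Mb for dKO. The list with the most sequence under peaks, WT replicate 2, thus broke the fewest domains and the list with the least, dKO replicate 2, broke the most, although WT replicate 1 broke more than dKO replicate 1, which covered less. The part of depth or enrichment in these counts was not tested.

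**Figure D1:**
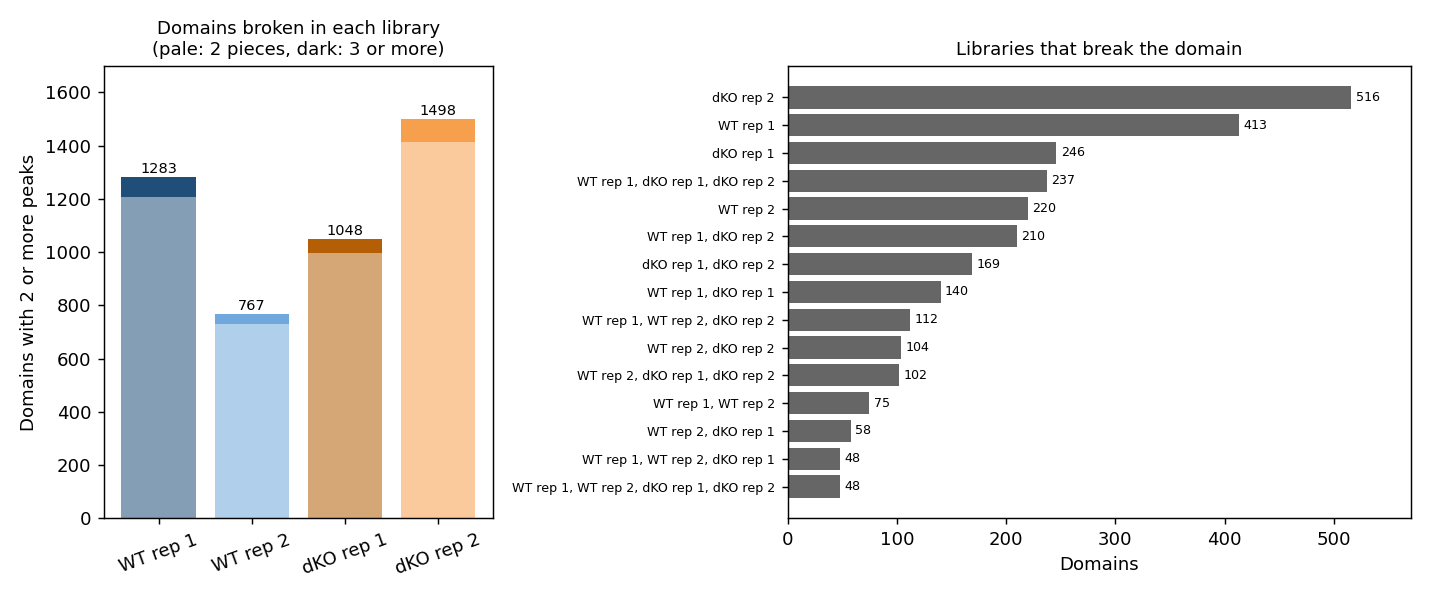
Left, number of the 2698 broken domains that each library reports in 2 pieces (pale) or in 3 or more (dark). Right, number of domains for each combination of libraries with 2 or more peaks. The libraries range from 767 to 1498 broken domains, and the most frequent combination is dKO replicate 2 alone (516).

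Most breaks made a pair of pieces. In WT replicate 1, 1205 domains came in 2 pieces, 70 in 3 and 8 in 4. WT replicate 2 had 729, 36 and 2 of these, dKO replicate 1 had 997, 49 and 1, and dKO replicate 2 had 1415, 80 and 3. A single domain, in dKO replicate 1, came in 5 pieces. Summed over the 4 libraries, 1370 domains had 5 pieces, which is 1 more than the smallest number possible for a shared region, 724 had 6, 457 had 7 and 3 had 13.

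By the rule, each base of a gap carries a peak in at least 1 other library. A stretch without a peak in all 4 would end the union region. The number of libraries that broke each domain was counted within this limit. Of all domains, 1395 (51.7%) were broken in 1 library, 756 (28.0%) in 2, 499 (18.5%) in 3 and 48 (1.78%) in all 4. The single-library breaks came from dKO replicate 2 in 516 domains, WT replicate 1 in 413, dKO replicate 1 in 246 and WT replicate 2 in 220. Among domains broken in 3 libraries, the library that kept the domain whole was WT replicate 2 in 237, dKO replicate 1 in 112, WT replicate 1 in 102 and dKO replicate 2 in 48. Thus dKO replicate 2 broke domains alone most often and WT replicate 2 bridged them alone most often. These counts divide up the same breaks as the totals per library, so their like order is not a separate observation.

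Breaks that separated the genotypes were a small share. In 169 domains both dKO libraries and neither WT library broke (6.26%), against 1.31% of all 14943 shared regions. The reverse, a break in both WT libraries and neither dKO library, was found in 75 domains (2.78%), against 0.535% of all shared regions. The rule keeps only regions with a break, which raises both shares over their background, and nothing is read from them. With lists cut to about equal length, a cut that fell mostly on the WT lists, the counts were 185 and 37. The pair of libraries with the most broken domains in common was WT replicate 1 with dKO replicate 2, at 607 domains (47.3% and 40.5% of the broken domains of each), followed by the dKO replicates at 556 (53.1% of dKO replicate 1, 37.1% of dKO replicate 2). The WT replicates shared 283 (22.1% and 36.9%).

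The gaps between pieces were short. No 2 peaks of any of the 4 lists lay closer than 101 bp, so shorter dips are not seen as breaks, and the smallest gap in the domains was 101 bp in every library. The 4862 gaps had a median of 156 bp, with an interquartile range of 125 to 206 bp. By library the median was 151 bp in WT replicate 1, 146 bp in WT replicate 2, 155 bp in dKO replicate 1 and 168 bp in dKO replicate 2. Gaps were thus slightly longer in both dKO libraries, with the longest median again in dKO replicate 2, and the 2 WT medians lay 5 bp apart. Gaps under 200 bp made up 76.3% of those in each WT library, 72.1% in dKO replicate 1 and 66.1% in dKO replicate 2. Of the 2698 domains, 951 held a gap of 200 bp or more in some library and 87 one of 500 bp or more. Gaps of 500 bp or more were rare everywhere, at 14, 10, 24 and 56 in the same order. In a library that broke the domain, the gaps took a median of 9.42% and 8.88% of the span from the first to the last base of the mark in the WT libraries, and 9.81% and 11.0% in the dKO libraries.

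**Figure D2:**
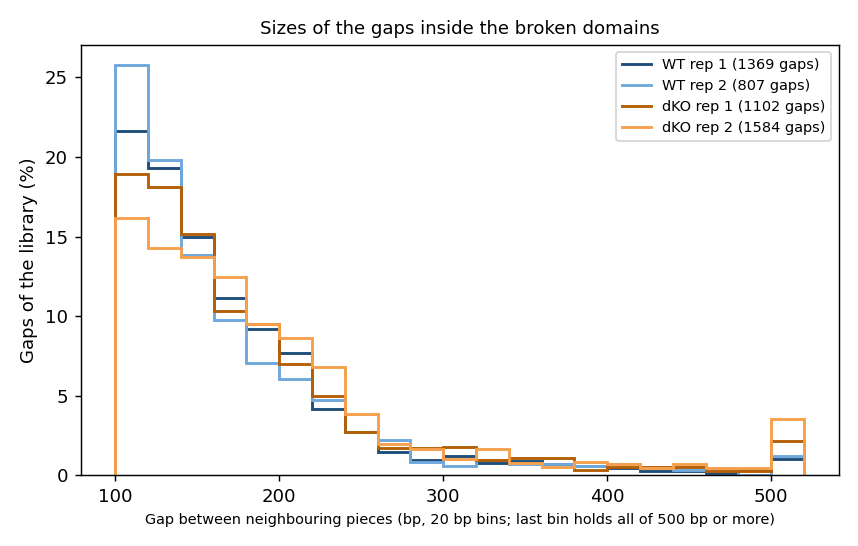
Sizes of the 4862 gaps between neighbouring pieces of a domain, as a percentage of the gaps of each library; each line is 1 library. All 4 start at 101 bp and fall steeply, and dKO replicate 2 has the smallest share of the shortest gaps and the longest median (168 bp).

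Where 2 or more libraries broke a domain, their gaps mostly overlapped. How much overlap the smallest piece widths alone would give was not tested. Of the 1303 domains broken in 2 or more libraries, 1196 (91.8%) had gaps of different libraries that overlapped. Where gaps of 2 libraries overlapped, their centres lay a median of 23 to 27 bp apart in the 6 pairs of libraries. This distance is short against the gaps themselves, although overlap limits how far apart the centres can be. Over all 2698 domains, 1502 (55.7%) had no base in a gap of more than 1 library, among them the 1395 broken in 1 library. A gap of 2 libraries at the same base was the most seen in 738 domains (27.4%), and 458 (17.0%) had a base in a gap of 3 libraries. No domain can have a gap in all 4 at the same base, since a stretch free of peaks in every list would end the union region there. Of the 169 domains broken only in dKO, 152 (89.9%) had overlapping gaps in the 2 libraries, and of the 75 broken only in WT, 55 (73.3%) did.

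What the other libraries showed at a gap differed among them. WT replicate 2 covered the whole gap with 1 peak at 81.4% of the gaps of WT replicate 1, 78.0% of those of dKO replicate 1 and 78.7% of those of dKO replicate 2. dKO replicate 2 bridged 33.4% of the gaps of WT replicate 1, 30.1% of those of WT replicate 2 and 29.3% of those of dKO replicate 1. These are the most and the least bridging libraries for gaps of any origin. At the remaining gaps a library either had an overlapping gap of its own or had no peak beyond the gap, its outer end falling inside or short of it. dKO replicate 2 ended in this way at 25.8% of the gaps of WT replicate 1 and 30.4% of those of WT replicate 2, and at 23.0% of those of dKO replicate 1, whereas WT replicate 2 did so at 1.52% of the gaps of dKO replicate 2. A piece set apart in another library, of either genotype, was thus at times missing from dKO replicate 2 altogether. All 3 other libraries bridged 22.8% of the gaps, 2 bridged 31.8% and 1 bridged 44.3%. No single library bridged the other 1.13% in full, where the pieces of several libraries close the gap together.

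The pieces were unequal. Over the 4346 cases of a domain in 2 pieces in a library, the median was 407 bp for the smaller and 1057 bp for the larger piece, and the median ratio of the 2 was 0.435. The smaller piece measured under 400 bp in 48.9% of cases, against a smallest peak of 200 to 215 bp in the lists. The centre of the gap stood a median of 32.7% of the span from the nearer end, and in 12.9% of cases it lay within the outer 20% at either end. In 47.9% of cases it lay in the middle one of 3 equal parts of the span, from 42.1% in WT replicate 2 to 51.5% in dKO replicate 2. Few gap centres thus lay in the outer 20%, but the smallest peak and gap widths of the lists keep a centre away from the ends. How far these limits fix the position was not tested, and nothing is read from it. Close to as many gaps lay in the central part as outside it. The longer piece was the one at the lower coordinate in 49.0% of cases. Ranked by score within its own list, the lower piece stood at a median percentile of 20.5 and the higher at 62.7. The lower piece is near the weak end of its list and the higher one near the level of single-peak regions of the same width range, whose median percentile was 63.2 and 63.1 in WT and 60.3 and 58.6 in dKO.

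Broken domains were wider than single-peak regions, and the share of shared regions that were broken rose with width. The WT mean of summed widths had a median of 1671.2 bp in broken domains and 1137 bp in single-peak regions of 500 to under 3000 bp. Of regions from 500 to under 750 bp, 4.15% were broken in at least 1 library. This share was 16.5% from 1000 to under 1500 bp, 30.5% from 1500 to under 2000 bp and 60% from 2500 to under 3000 bp. Outside the range it was 1.93% of the 1089 narrower shared regions and 73.1% of the 387 wider ones. The order of the libraries differed between the narrowest and the widest class of this range. From 500 to under 750 bp, WT replicate 1 broke 1.81%, WT replicate 2 1.24%, dKO replicate 1 1.14% and dKO replicate 2 0.954%. This lowest class rests on few breaks, 38, 26, 24 and 20 of 2097 regions. From 2500 to under 3000 bp the shares were 31.0%, 18.6%, 29.0% and 40.4%, so dKO replicate 2 went from the least to the most. A WT break lowers the WT summed width that sets the class and a dKO break does not. The effect of this was not tested. In shared regions of 3000 bp or more, which the rule leaves out, the shares were 43.2%, 24.8%, 42.6% and 53.2%, with the libraries in the same order as in the broken domains.

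**Figure D3:**
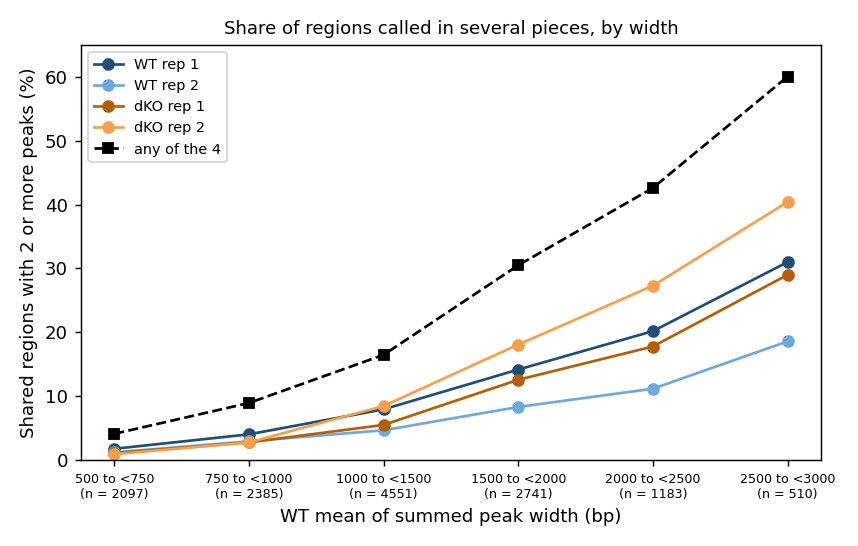
Percentage of shared regions with 2 or more peaks, in each library and in any of the 4, against the WT mean of summed peak width in 6 classes; n is the number of regions in a class. The share in any library rises from 4.15% to 60%, and among the libraries dKO replicate 2 goes from the lowest share to the highest.

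Within a class of WT mean width, the regions that a library broke mostly scored lower than those it kept whole. For WT replicate 1 and regions from 1000 to under 1500 bp, the best piece stood at a median percentile of 57.6 in 363 broken regions and the single peak at 68.2 in 4188 whole ones. For dKO replicate 2 in the same class these were 47.8 in 387 and 64.9 in 4164. The broken regions were lower in 23 of the 24 combinations of library and width class. From 2500 to under 3000 bp the broken and whole medians lay closer together than in narrower classes, except in WT replicate 2. They were 80.9 and 80.9 in WT replicate 1 and 73.8 and 82.7 in WT replicate 2. In dKO replicate 1 they were 79.3 and 80.7, and in dKO replicate 2 they were 77.9 and 80.4. The medians of WT replicate 2 were closest from 2000 to under 2500 bp, at 75.6 and 79.0. A score given to a piece and a score given to a whole peak may not be alike, and the effect of this was not tested. Broken domains were found on all 19 autosomes and on chromosome X, from 16.7% of shared regions in the width range on chromosome 16 to 23.7% on chromosome X. Another union region lay under 500 bp away from 21.4% of broken domains and 22.6% of single-peak regions.

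Breaks touched the comparison of widths between genotypes, since the summed width of a domain loses its gaps and the span from its first to its last base does not. The medians of summed width in the broken domains were 1607.5 and 1719 bp for the WT libraries against 1580.5 and 1410 bp for the dKO libraries. The medians of span were 1696.5 and 1764 bp against 1645 and 1528.5 bp. Both measures were lower in both dKO libraries than in both WT libraries, as were the single-peak regions (1113 and 1164 bp against 1082 and 998 bp). For the comparison, log2 widths of all 14943 shared regions, less their library median, were fitted with limma, with Benjamini-Hochberg adjustment over all of them. The median log2 change, dKO minus WT, was -0.016 by summed width and 0.027 by span in the broken domains, against 0.023 and 0.026 over all shared regions. By summed width the median of the broken domains was 0.016 without dKO replicate 2.

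No broken domain passed an adjusted p of 0.05 by limma, either wider (0 of 2698, background 0.00669% for both measures) or narrower (0, background 0%). At an unadjusted p under 0.05, 104 were wider and 262 narrower by summed width, 3.85% and 9.71%, against 2.82% and 4.85% of all shared regions. By span 104 were wider and 191 narrower, 3.85% and 7.08%, against 2.83% and 4.39%. The WT width entered the choice of domains, so these shares are given without a reading. Without dKO replicate 1, 59 domains (2.19%) were called narrower by summed width, against 0.709% of all shared regions, and 64 (2.37%) by span, against 0.663%, with the spread estimated on the WT pair and taken to hold for the single dKO library too.

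The choice of measure moved single domains more than the median. The 2 log2 changes differed by over 0.1 in 875 domains (32.4%) and had opposite signs in 556 (20.6%). Of the 366 domains with an unadjusted p under 0.05 by summed width, 196 (53.6%) also had one by span in the same direction. In the 169 domains broken only in dKO the median was -0.079 by summed width and 0.076 by span, and 126 of them were below 0 by the first measure and 44 by the second. In the 75 broken only in WT the medians were -0.024 and -0.19. Gaps in 1 genotype lower its summed width by construction, so the sign of this difference is fixed, while its size is measured.

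**Figure D4:**
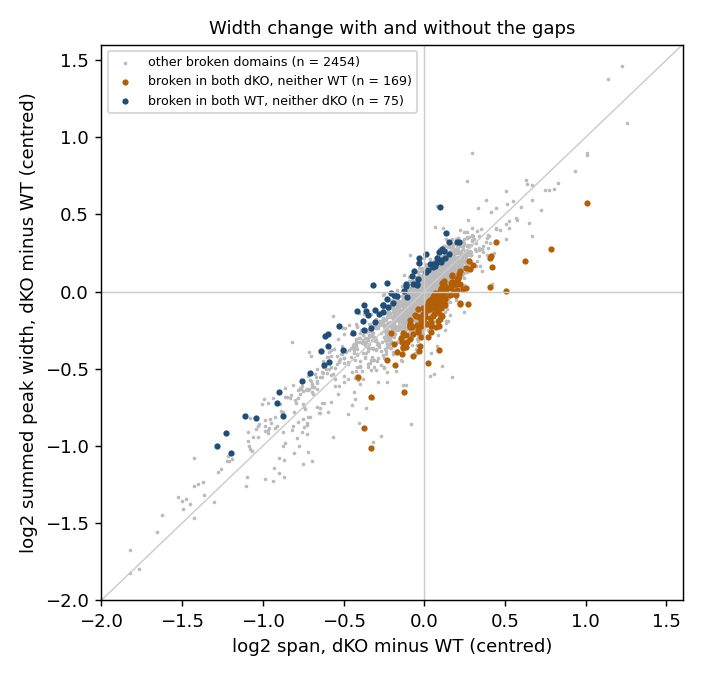
Each point is 1 of the 2698 broken domains, with the centred log2 change in span (dKO minus WT) on the x axis and in summed peak width on the y axis; the diagonal marks equal values. Domains broken only in dKO (169) lie below the diagonal, with medians of 0.076 and -0.079, and those broken only in WT (75) above it.

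The 3 domains with 13 pieces over the 4 libraries, the most of any, were broken in every library. At chr13:115247382-115250176 (domain A in the map of pieces) the mark came in 4, 3, 2 and 4 pieces in WT replicates 1 and 2 and dKO replicates 1 and 2, with gaps of 222, 133 and 135 bp in WT replicate 1, 130 and 151 bp in WT replicate 2, 112 bp in dKO replicate 1 and 615, 172 and 191 bp in dKO replicate 2. Summed widths were 2142, 2494, 2645 and 1532 bp. dKO replicate 2 was the lowest and dKO replicate 1 the highest, so the genotypes overlapped (limma, log2 change -0.057, SE 0.20, adjusted p = 0.951). The span, at 2632, 2775, 2757 and 2510 bp, varied less than the summed width.

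The domain at chr13:23608602-23610857 shows how all 4 libraries can break a domain without a common gap. Counting from the lower coordinate, at its first break WT replicate 1, WT replicate 2 and dKO replicate 1 had gaps of 153, 158 and 180 bp, and dKO replicate 2 carried a peak across. At the second, WT replicate 1, dKO replicate 1 and dKO replicate 2 had gaps of 163, 112 and 112 bp and WT replicate 2 carried a peak across. dKO replicate 2 had another gap, of 207 bp, between them. A base in a gap of 3 libraries was found in 42 of the 48 domains broken in all 4. The other domains with the most pieces were chr18:65741429-65744417 and chr10:126624980-126627384 with 13, and chr14:67853516-67856699 and chr10:66998146-67000786 with 11. The last of these fell outside the 5 named by rule, by its shorter mean span, and was added after its values were seen. It was broken in 3 libraries and whole in dKO replicate 2.

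**Figure D5:**
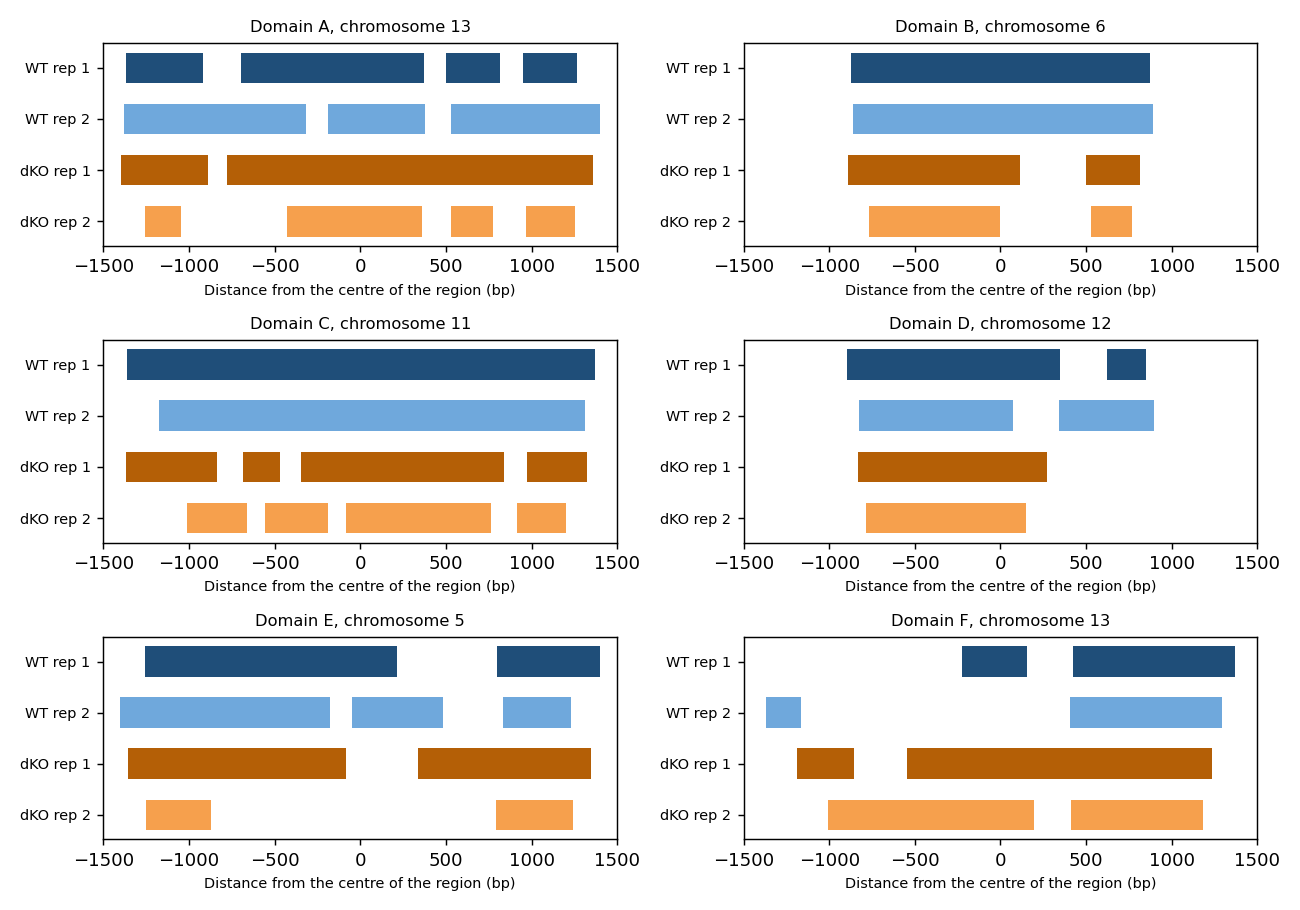
Peaks of 6 domains in the 4 libraries, each bar 1 peak, against the distance from the centre of the union region in bp. A has 13 pieces in all, B and C are broken only in dKO, D only in WT, and E and F hold the longest gaps of the broken domains (1665 bp in dKO replicate 2 and 1572 bp in WT replicate 2).

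Among domains broken only in dKO, ranked by the smaller of the 2 libraries' total gap, the first were chr7:17366636-17369302 (507 and 838 bp in all in dKO replicates 1 and 2), chr11:31901089-31903067 (561 and 395 bp), chr6:127984209-127985989 (383 and 529 bp), chr11:102089325-102092060 (404 and 360 bp) and chr3:55985471-55988218 (343 and 326 bp). These totals were single gaps except in dKO replicate 2 at chr11:31901089-31903067, with gaps of 184 and 211 bp, and in both libraries at chr11:102089325-102092060. On chromosome 6 (domain B) the WT libraries each had a continuous peak, of 1748 and 1752 bp. The dKO libraries kept a longer piece of 1007 and 762 bp and a shorter one of 316 and 241 bp. The summed width was 1750 ± 2.83 bp for WT against 1163 ± 226 bp for dKO (SD, n = 2 each; limma, log2 change -0.46, adjusted p = 0.492), while the span was 1750 ± 2.83 and 1619 ± 123 bp (log2 change 0.021, adjusted p = 0.952). Neither measure passed the threshold.

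The chromosome 11 domain at chr11:102089325-102092060 (domain C) was continuous in WT, at 2732 and 2491 bp, and came in 4 pieces in both dKO libraries. The gaps were 151, 123 and 130 bp in dKO replicate 1 and 107, 103 and 150 bp in dKO replicate 2, so every one of them was short. Only the last gap of each library overlapped that of the other. The rest were each covered by a peak of the other dKO library. The summed width was 2611.5 ± 170.4 bp for WT against 2072 ± 306.9 bp for dKO (SD, n = 2 each). At chr7:17366636-17369302 the dKO spans of 2524 and 2667 bp were above both WT widths (1388 and 2459 bp), and the summed widths of 2017 and 1829 bp lay between them.

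Among domains broken only in WT, the first by the same ranking of total gaps were chr7:134092789-134095783 (366 and 651 bp in all in WT replicates 1 and 2), chr12:110074253-110076046 (271 and 273 bp), chr14:35123178-35125729 (254 and 245 bp), chr17:34026199-34027714 (367 and 243 bp) and chr10:81068298-81069776 (251 and 236 bp). On chromosome 12 (domain D) each WT library had a second piece after its gap, of 231 and 553 bp. The WT gaps did not overlap, and each was covered by a peak of the other WT library. Both dKO libraries ended before either second piece, with single peaks of 1103 and 935 bp. The dKO peaks thus ended short of the outer pieces and covered neither gap. The span was 1734.5 ± 17.7 bp for WT against 1019 ± 118.8 bp for dKO (SD, n = 2 each; limma, log2 change -0.64, adjusted p = 0.283). On chromosome 7 the dKO peaks likewise ended short of the last WT piece, and the span was 2852 and 2954 bp against 1830 and 644 bp. On chromosomes 14, 17 and 10 dKO replicate 1 instead covered the gaps, with peaks of 2336, 1410 and 1313 bp, and dKO replicate 2 did not.

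Breaks in a single library could also be long. The largest total gaps seen in 1 library alone were 646 bp (chr7:26063488-26065776) and 644 bp (chr1:141318159-141321072) in WT replicate 1, and 696 bp (chr9:108726630-108730110) and 554 bp (chr2:16277152-16279694) in WT replicate 2. In dKO replicate 1 they were 762 bp (chr11:31772352-31774017) and 724 bp (chr10:98725905-98728724), and in dKO replicate 2 they were 704 bp (chr7:35902844-35905567) and 691 bp (chr4:155558637-155560750). On chromosome 10, dKO replicate 2 had a continuous peak of 2588 bp where dKO replicate 1 had pieces over 2820 bp, and the WT peaks measured 1777 and 2016 bp.

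The longest single gap of any domain, 1665 bp, was in dKO replicate 2 at chr5:28790872-28793673 (domain E). There the outer pieces measured 376 and 450 bp, and the other libraries filled much of the space, with gaps of 579 bp in WT replicate 1, 129 and 347 bp in WT replicate 2 and 422 bp in dKO replicate 1. Summed widths were 2081, 2156, 2284 and 826 bp, with dKO replicate 2 alone low, and the spans were 2660, 2632, 2706 and 2491 bp. The domains at chr1:140736103-140739244 and chr1:59538936-59542227 had gaps of 1337 and 1265 bp in dKO replicate 2. In the first, WT replicate 2 had a continuous peak of 3142 bp. In the second, dKO replicate 1 had a continuous peak of 3292 bp, and WT replicates 1 and 2 had 2 and 3 pieces.

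The domain at chr13:81769710-81772452 (domain F) held the 1572 bp gap of WT replicate 2, between a piece of 205 bp and a piece of 890 bp. Its WT spans of 1596 and 2667 bp stood around the dKO spans of 2427 and 2185 bp, so the genotypes overlapped by span, whereas the WT summed widths of 1331 and 1095 bp were both below those of dKO, at 2118 and 1969 bp. The log2 change was 0.90 by summed width (SE 0.13, limma, adjusted p = 0.207) and 0.29 by span (adjusted p = 0.758). The small piece of WT replicate 2 stood at percentile 1.86 of its list by score.

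The domains with the smallest p by summed width did not pass the threshold, and for several of them summed width and span gave different sizes of change. On the wider side, chr3:145310172-145313223 had single WT peaks of 1579 and 1519 bp, a single peak of 3052 bp in dKO replicate 1, and pieces of 516 and 1726 bp around a gap of 398 bp in dKO replicate 2; its log2 change was 0.90 by summed width and 1.01 by span (limma, adjusted p = 0.194 and 0.155). The change at chr11:35792369-35794506 was 0.57 and 0.51, and that at chr7:17323060-17324631 was 0.54 and 0.45. On the narrower side, chr4:155558637-155560750 had 2090 and 2105 bp for WT against 882 and 891 bp for dKO. In dKO replicate 2 the 891 bp were 2 pieces spanning 1582 bp, so the log2 change went from -1.10 by summed width to -0.69 by span (limma, adjusted p = 0.184 and 0.695). At chr15:98462670-98464175 it likewise went from -1.12 to -0.75, with gaps of 509 bp in dKO replicate 2 and 145 bp in WT replicate 1. At chr11:60021928-60024001 and chr10:79763714-79765438 only a WT library was broken, by 131 and 148 bp, and the changes were -0.92 and -1.38 by summed width and -0.97 and -1.45 by span.

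The largest differences between the measures were at chr6:30250545-30252558, chr2:18529595-18531347 and chr4:125167658-125169426. On chromosome 6 all 4 libraries had 2 pieces. The single gap of each measured 130 bp in both WT libraries, 515 bp in dKO replicate 1 and 915 bp in dKO replicate 2. The WT gaps lay at different places, and each was covered by a peak of the other WT library. Both dKO gaps were longer and overlapped both WT gaps. Summed widths were 1830, 1884, 1378 and 623 bp in WT replicates 1 and 2 and dKO replicates 1 and 2, and spans were 1960, 2014, 1893 and 1538 bp. The log2 change was -0.86 by summed width and -0.084 by span (limma, adjusted p = 0.609 and 0.815). On chromosome 2 the change was -0.56 by summed width and 0.18 by span, and on chromosome 4 it was -1.01 and -0.33.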

How the data were processed

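H3K4me3 peak lists of 4 libraries were used, and the 4 input libraries were not analysed here. The submitters' processing notes name MACS2 2.1.1.20160309, BWA 0.7.12-r1039, bedtools, SAMtools, Picard 2.6.0, R 2.14.0 and build mm9. Their roles, thresholds and any use of input are not given in the sources used here. The deposited lists give peak positions and a score of unnamed scale, which served to rank peaks within a list and to shorten lists. Positions are printed counted from 1. The gene table at hand is of another build, so no gene was assigned and no sequence is printed.

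Union regions, pieces, gaps and spans were computed with bedtools 2.31.1, Python 3.11.15, pandas 2.3.3 and numpy 2.4.6. A library breaks a domain where it has 2 or more peaks in it. Log2 widths of all 14943 shared regions entered limma 3.58.1 under R 4.3.3 (moderated variances with a trend), with Benjamini-Hochberg adjustment, and the script was tested on simulated data. No low-value filter was used, and all 2698 domains entered. As no label ties a library to an animal, a p-value covers only the spread among these libraries, which may be technical. Depth being unknown, no depth interval could be given.

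Named domains were those with the most pieces, the largest gaps (in both libraries of a genotype alone, in 1 library alone, or anywhere), the smallest p in each direction, the largest difference between summed width and span, and those next to the width limits. The domains and rules were chosen with earlier results of these data known. Alternatives were lists of about equal length, gaps of at least 200 or 500 bp, peaks under 300 bp left out, autosomes, width limits on the mean of all 4 libraries, other scalings, no variance trend, the replicate number as a block, and each library left out. Plots were drawn with matplotlib 3.10.9.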

Additional observations from a re-analysis of the deposited data

How the results depend on the processing

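When peaks of a list under 200 bp apart were first joined and the union regions drawn anew, which also brings in domains outside the 2698, the rule found 1467 domains, broken in 564 (WT replicate 1), 369 (WT replicate 2), 528 (dKO replicate 1) and 846 (dKO replicate 2), with 108 broken only in both dKO and 27 only in both WT. After joining under 500 bp these were 278, then 93, 68, 95 and 152, then 18 and 7. Domains broken only in both WT numbered 37 with lists of about equal length. The difference of the dKO and WT means of broken domains, 248, was 473.5 with lists of about equal length and 43 after joining under 500 bp. The moves after joining come from the gap limit and the redrawn regions together. Cutting the lists took low-scoring peaks mostly from WT and none from dKO replicate 2. The number of domains was 1946 to 2740 under the other settings and 2060 to 2325 with a library left out. The median gap was 154 bp with lists of about equal length and 151 to 157 bp with a library left out; it was not recomputed under the other settings. Without centring, the median log2 change was -0.158 by summed width and -0.109 by span. By span it was -0.0025 with quantile normalization. Calls with a library left out ranged from 0 to 59 narrower and stayed at 0 wider by summed width, and from 0 to 64 narrower and 0 to 1 wider by span. Every call came without dKO replicate 1, where 106 and 99 of all 14943 shared regions were called narrower. The same replicate number does not mark a shared source in the labels, and the deviations of same-numbered libraries correlated at -0.059 over regions. With the replicate block, 0 domains were called and the median change was -0.016. Of 72 alternative values of the 8 changes with the smallest p, all kept their direction and 4 passed the threshold, each without dKO replicate 1: -1.03 on chromosome 4, -0.94 on chromosome 11, -1.47 on chromosome 10 and -1.06 on chromosome 15. Break counts with a library left out, and span for the named changes, were chosen after the data were seen. With depth unknown, a gap means only that no peak was called there.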

Other observations

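Breaks common to all 4 libraries end a union region, so they are not among the broken domains. They appear as neighbouring shared regions. There were 1234 pairs of neighbouring regions with a peak in all 4 libraries and under 500 bp between them, with a median distance of 168 bp, and 786 pairs lay under 200 bp apart. Measured in each library, the median distance between the facing peaks of the 1234 pairs was 230 bp in WT replicate 1, 216.5 bp in WT replicate 2, 238 bp in dKO replicate 1 and 282.5 bp in dKO replicate 2. The libraries thus stood in the same order here as by median gap size within broken domains. In 309 of the 1234 pairs at least 1 of the regions was a broken domain. These values have no test.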
